A study of Mus musculus with 9 samples.

Results

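The genes described here are 10 genes of DNA replication licensing and of the replication fork, namely Mcm2, Mcm3, Mcm4, Mcm5, Mcm6, Mcm7, Cdc6, Cdt1, Cdc45 and Pcna, in BV-2 microglial cells that were primed with LPS and challenged again. They form a list of names with no threshold on a measured value, and they are 10 of the 48526 genes in the table of RNA-seq counts, of which 14702 had enough counts to be tested, all 10 among them. BV-2 cells are a line of mouse microglia immortalised with oncogenes, and poly(A) RNA was measured in 9 libraries of 3 groups, with 3 libraries numbered 4, 5 and 6 in each. HP cells were primed for 24 h with a high dose of LPS (100 ng/mL), ULP cells were primed for 24 h with an ultra-low dose (1 fg/mL), and UP cells were not primed. All 3 groups received 100 ng/mL LPS on day 6, so that every library comes from LPS-treated cells and unstimulated cells were not analysed here. The groups follow the sample titles, since the labels' own field for the dose has the priming doses of ULP and HP exchanged. No source states that the 3 libraries of a group are separate cultures, so that p-values here rest on library-to-library spread alone, part or all of which may be technical. The study asked how the priming dose alters a later LPS response, and the comparisons are therefore HP over UP, ULP over UP and HP over ULP.

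Cells license their DNA for replication in G1 phase. The origin recognition complex, Cdc6 and Cdt1 load the ring of Mcm2, Mcm3, Mcm4, Mcm5, Mcm6 and Mcm7 onto origins, and in S phase Cdc45 and the GINS complex join this ring to form the active helicase, while Pcna, the sliding clamp, tethers DNA polymerases to the template. Many of these genes are known targets of E2F transcription factors, so that their mRNAs are widely used as marks of proliferating cells, and BV-2 cells proliferate in culture. The 10 genes are scattered over the genome. RefSeq (GRCm38.p6) places Mcm2 at chr6:88883474-88898780, Mcm3 at chr1:20802966-20820312, Mcm4 at chr16:15623897-15637400, Mcm5 at chr8:75109468-75128439, Mcm6 at chr1:128331575-128359705, Mcm7 at chr5:138164583-138172111, Cdc6 at chr11:98907709-98923942, Cdt1 at chr8:122568015-122573130, Cdc45 at chr16:18780447-18811972 and Pcna at chr2:132249286-132253180, and each value below is for the whole gene.

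To show what the members share in sequence, the windows from 250 bases before to 50 bases after the transcription start were taken from RefSeq (GRCm38.p6) for 9 of the 10 genes, with Mcm4 not in that table. The letters TTTCGCGC, TTTGGCGC, TTTCCCGC and TTTGCCGC, forms of the E2F motif, were searched on both strands, and occurrences on opposite strands may overlap. At least 1 of them was found in 6 of the 9 genes (Mcm3, Mcm5, Mcm6, Mcm7, Cdc6 and Cdt1), against 2.26% of all 32851 promoter windows. CCAAT, the letters of the NF-Y motif, was found on either strand in 7 of the 9 genes, against 37.4% of all windows. The windows of the 4 helicase subunits with E2F letters are shown because these 4 genes had the same 4 libraries as their lowest, as described below. Cdt1 also had E2F letters and these 4 libraries as its lowest, whereas Cdc6 had E2F letters but not these 4 libraries as its lowest. A link between the letters and the levels was not tested. Capitals mark the E2F letters, and positions count from the start of transcription. Mcm3 had them at 20 and 39 after the start, Mcm5 at 153 and 149 before it as 1 overlapping pair, Mcm6 at 110 and 106 before it as an overlapping pair and again at 47 before it, and Mcm7 at 165 before and 17 after it. They lie at chr1:20820263-20820562 (Mcm3, minus strand), chr8:75109259-75109558 (Mcm5, plus strand), chr1:128359656-128359955 (Mcm6, minus strand) and chr5:138171834-138172133 (Mcm7, minus strand, the first of 2 windows of this gene).
Mcm3: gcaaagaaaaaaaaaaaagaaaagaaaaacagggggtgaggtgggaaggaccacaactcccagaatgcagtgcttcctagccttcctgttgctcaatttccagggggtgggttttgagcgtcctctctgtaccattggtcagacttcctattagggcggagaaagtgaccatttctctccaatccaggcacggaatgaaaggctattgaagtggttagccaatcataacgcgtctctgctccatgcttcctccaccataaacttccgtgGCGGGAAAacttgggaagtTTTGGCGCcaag
Mcm5: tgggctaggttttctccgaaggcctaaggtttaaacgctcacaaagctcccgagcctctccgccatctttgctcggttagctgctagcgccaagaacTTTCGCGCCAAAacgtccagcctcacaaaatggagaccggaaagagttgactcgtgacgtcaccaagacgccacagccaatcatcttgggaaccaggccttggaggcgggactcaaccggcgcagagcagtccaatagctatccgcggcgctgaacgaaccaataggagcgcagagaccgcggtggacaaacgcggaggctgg
Mcm6: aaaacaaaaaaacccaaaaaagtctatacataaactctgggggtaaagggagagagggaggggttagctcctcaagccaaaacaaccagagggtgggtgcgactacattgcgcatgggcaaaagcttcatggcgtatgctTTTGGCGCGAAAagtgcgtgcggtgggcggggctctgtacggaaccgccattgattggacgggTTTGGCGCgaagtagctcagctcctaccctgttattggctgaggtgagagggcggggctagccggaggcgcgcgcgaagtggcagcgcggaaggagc
Mcm7: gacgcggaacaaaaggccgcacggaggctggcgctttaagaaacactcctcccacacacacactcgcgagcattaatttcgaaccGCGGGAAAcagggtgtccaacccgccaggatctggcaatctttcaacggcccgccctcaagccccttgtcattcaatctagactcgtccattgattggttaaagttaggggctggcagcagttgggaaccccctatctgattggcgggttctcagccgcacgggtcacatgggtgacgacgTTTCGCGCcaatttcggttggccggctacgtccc
A match in letters is a description and was not tested for binding.

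Depth was 24189203 to 27802244 assigned counts per library, which gave the 10 genes between 741 (Cdc6) and 11221 (Mcm7) counts. Markers of microglia and macrophages were present, 10 of 12 passing the filter with Tyrobp at 700 to 976 RPKM, although Cx3cr1 and P2ry12, which define homeostatic microglia, reached at most 2 and 4 counts. Of 14 markers of other brain and stromal cells, 10 did not pass the filter, Aqp4, Rbfox3 and Cldn5 had no count, and all 14 summed to 1.02 to 1.17 RPKM in HP, 1.17 to 1.46 RPKM in ULP and 1.24 to 1.63 RPKM in UP libraries. The first principal component of all genes tested held 79.1% of the variance and did not follow the labels in 2 of 6 primed libraries. HP 4, HP 5, ULP 5 and ULP 6 lay between 44 and 75.5 on it, whereas HP 6 and ULP 4 lay at −20.4 and −39.2, next to the UP libraries at −73 to −46.4. The summed share of the nuclear RNAs Malat1, Neat1, Kcnq1ot1 and Meg3, the last of which had at most 4 counts, moved with the component, at 0.0468%, 0.1068% and 0.006514% of counts in HP 4, 5 and 6, 0.00498%, 0.03084% and 0.02916% in ULP, and 0.003257%, 0.003357% and 0.002219% in UP libraries, and their part in the results below was not tested. The fold changes of the 10 genes and the medians of several lists are therefore also given without HP 6 and ULP 4, an alternative chosen after seeing the data.

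Pcna was the most abundant of the 10 mRNAs per length, at 102.2 ± 12.2 RPKM (SD over 9 libraries). It was followed by Mcm3 (76.3 ± 11), Mcm7 (71.0 ± 13.3), Mcm6 (67.7 ± 8.78), Mcm5 (56.8 ± 10.4), Cdt1 (45.9 ± 7.13), Mcm4 (28.9 ± 6.63), Mcm2 (25.3 ± 4.17), Cdc45 (18.9 ± 0.902) and Cdc6 (6.67 ± 1.01 RPKM). The mean ± SD ranges over libraries overlapped for the neighbours Mcm3, Mcm7 and Mcm6, although Mcm3 was above Mcm6 in each of the 9 libraries, and for Mcm4 and Mcm2. The order held closely from library to library, with Mcm3 second and Cdc6 lowest in each of the 9. Variation across libraries was small, since the highest library exceeded the lowest by 1.15-fold for Cdc45 to 1.803-fold for Mcm4. On the log2 CPM scale the SD over 9 libraries ran from 0.11 for Cdc45, at the 4.35th percentile of the genes tested, and 0.14 for Pcna (8.13th percentile) to 0.30 for Mcm7 (50.3rd percentile).

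**Figure D1:**
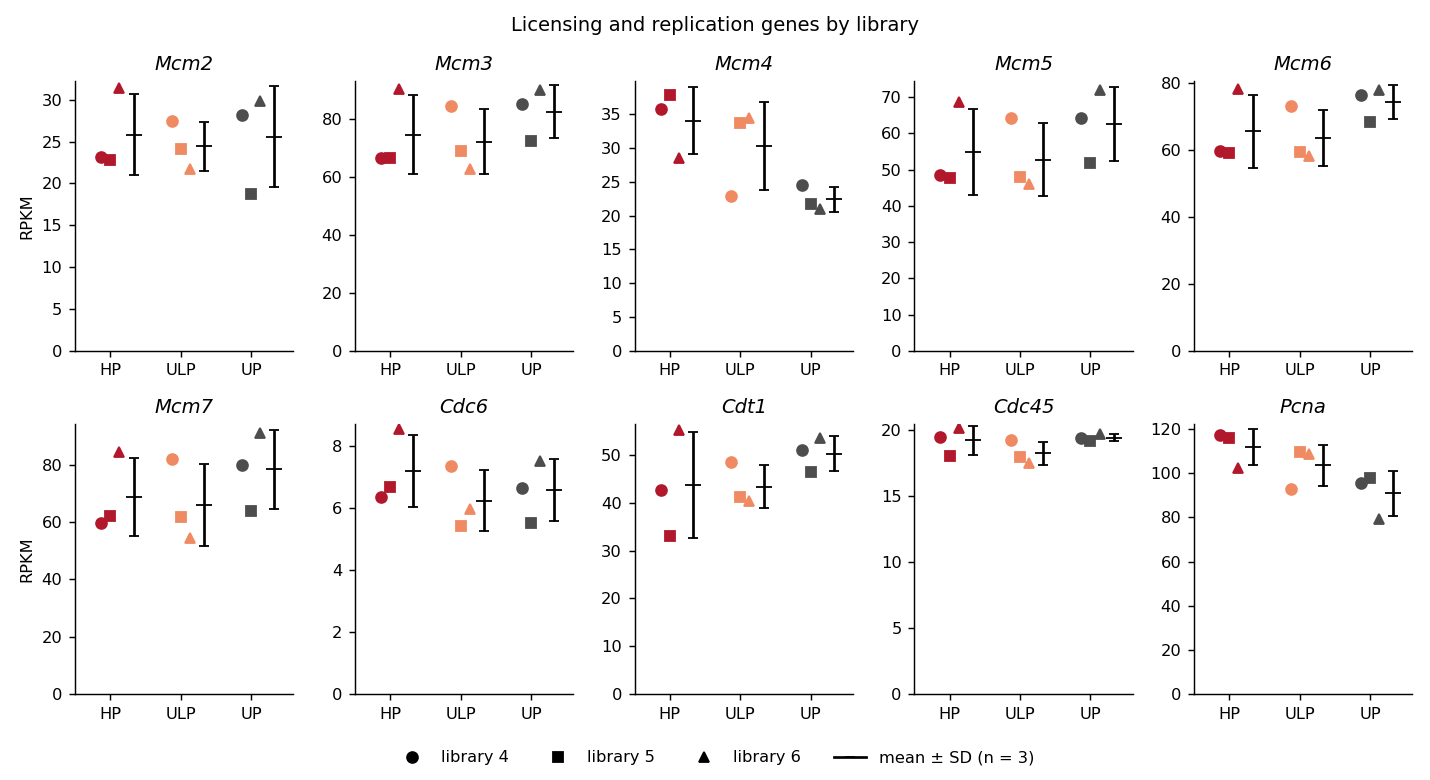
RPKM (y axis, from 0) of the 10 genes in HP, ULP and UP libraries (x axis), with 1 symbol per library number and the mean ± SD of 3 libraries beside them. Mcm4 lay between 28.5 and 37.9 RPKM in HP libraries, above the 21.0 to 24.5 RPKM of UP libraries, whereas the groups overlapped for Mcm2, Mcm3, Mcm5, Mcm6 and Mcm7.

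Among the helicase subunits, Mcm3, Mcm5, Mcm6 and Mcm7 had the same 4 libraries as their lowest. Mcm3 had 66.6, 66.6 and 90.2 RPKM in HP 4, 5 and 6, 84.5, 69.1 and 62.6 RPKM in ULP 4, 5 and 6, and 85.2, 72.4 and 89.9 RPKM in UP 4, 5 and 6. Mcm7 had 59.7, 62.1 and 84.6 RPKM in HP, 82.0, 61.7 and 54.3 RPKM in ULP, and 80.03, 63.8 and 91.2 RPKM in UP libraries. HP 4, HP 5, ULP 5 and ULP 6 thus lay below every UP library, and HP 6 and ULP 4 lay among or above the UP libraries. Mcm5 had 48.5, 47.6 and 68.7 RPKM in HP, 64.3, 48.0 and 46.0 RPKM in ULP, and 64.4, 51.7 and 72.03 RPKM in UP libraries. Mcm6, whose protein sits in the ring between Mcm2 and Mcm4, had 59.5, 59.0 and 78.1 RPKM in HP, 73.1, 59.4 and 58.1 RPKM in ULP, and 76.3, 68.3 and 77.8 RPKM in UP libraries. In both genes the same 4 primed libraries were the lowest of the 9. Mcm2 had 23.2, 22.9 and 31.4 RPKM in HP, 27.5, 24.1 and 21.7 RPKM in ULP, and 28.2, 18.8 and 29.9 RPKM in UP libraries, with UP 5 the lowest of all, so that the 3 groups overlapped fully.

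The fold changes of these 5 subunits against UP were small and negative, although Mcm2 was positive in 4 of 21 alternatives in HP over UP and 1 in ULP over UP. In HP over UP the log2 fold change was −0.10 ± 0.20 for Mcm2 (SE), −0.27 ± 0.18 for Mcm3, −0.31 ± 0.21 for Mcm5, −0.30 ± 0.16 for Mcm6 and −0.31 ± 0.22 for Mcm7, with adjusted p from 0.178 to 0.706 by edgeR's quasi-likelihood test. For ULP over UP they were −0.14, −0.27, −0.32, −0.30 and −0.32, with adjusted p from 0.225 to 0.633. None of the 5 passed the test in either comparison, and the 95% intervals in HP over UP reached down to −0.56 for Mcm2, −0.67 for Mcm3, −0.78 for Mcm5, −0.66 for Mcm6 and −0.79 for Mcm7. Without HP 6 and ULP 4, 4 of them passed in HP over UP: Mcm3 was lower by a log2 fold change of −0.42 (adjusted p = 0.0238), Mcm5 by −0.49 (0.022), Mcm6 by −0.43 (0.0114) and Mcm7 by −0.47 (0.0343). The same 4 passed in ULP over UP without these libraries, at −0.41, −0.50, −0.42 and −0.52 (adjusted p from 0.017 to 0.0323). Mcm2 was at −0.26 and −0.25 in these fits and did not pass. In those fits 48.5% and 38.2% of all genes tested were called, so that a call was common there. With the replicate block and a GC offset, HP over UP was at 0.09 for Mcm2, −0.32 for Mcm3, −0.27 for Mcm5, −0.46 for Mcm6 and −0.16 for Mcm7. The median of all genes was −0.09 in that fit, and none of the 5 passed. A part of base composition in these differences was not tested. In these bulk samples fewer cells in S phase and less of an mRNA per cell cannot be told apart.

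Mcm4, a subunit of the catalytic core of the ring with Mcm6 and Mcm7, had the opposite sign of these 5 in the fit reported. It had 35.8, 37.9 and 28.5 RPKM in HP 4, 5 and 6, 22.8, 33.7 and 34.5 RPKM in ULP libraries, and 24.5, 21.7 and 21.0 RPKM in UP libraries. Each HP library lay above each UP library, and ULP 4 lay among the UP libraries. The means were 34.1 ± 4.95 RPKM in HP, 30.3 ± 6.49 RPKM in ULP and 22.4 ± 1.81 RPKM in UP libraries (SD, n = 3 each). In HP over UP the log2 fold change was 0.48 (SE 0.16, 95% interval 0.11 to 0.85), or 1.40-fold, with an adjusted p of 0.071 by edgeR, which did not pass, and with a GC content offset its sign turned, at −0.19 with the replicate number as a block and −0.16 with gene length beside GC. DESeq2 called it in this comparison (adjusted p = 0.0497), as did edgeR without HP 6 (0.61, adjusted p = 0.0256, where 38.3% of all genes were called), without ULP 4 (0.48, adjusted p = 0.0343, 25.9% of all genes) and without both (0.61, adjusted p = 0.00278, 48.5% of all genes). Against UP, ULP was at 0.34 (SE 0.16, 95% interval −0.02 to 0.71, adjusted p = 0.197), at 0.48 without ULP 4 (adjusted p = 0.0498, where 19.2% of all genes were called) and 0.52 without both libraries (adjusted p = 0.0086), and here too the GC offsets turned the sign (−0.24 and −0.23).

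Mcm4 therefore took a different share of the summed Mcm2 to Mcm7 RPKM from one library to another. It made up 12.2%, 12.8% and 7.47% in HP 4, 5 and 6, 6.45%, 11.4% and 12.4% in ULP libraries, and 6.82%, 7.33% and 5.51% in UP libraries. HP 4, HP 5, ULP 5 and ULP 6 were thus above 11% and each other library was under 8%. The other subunits kept narrow shares over the 9 libraries, at 22.5 to 24.4% for Mcm3, 19.6 to 23.9% for Mcm7, 19.9 to 23.0% for Mcm6, 16.1 to 18.9% for Mcm5 and 6.32 to 8.23% for Mcm2. The 6 subunits summed to 293.3, 296.1 and 381.5 RPKM in HP, 354.2, 295.9 and 277.3 RPKM in ULP, and 358.6, 296.8 and 381.8 RPKM in UP libraries, with full overlap of the groups.

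**Figure D2:**
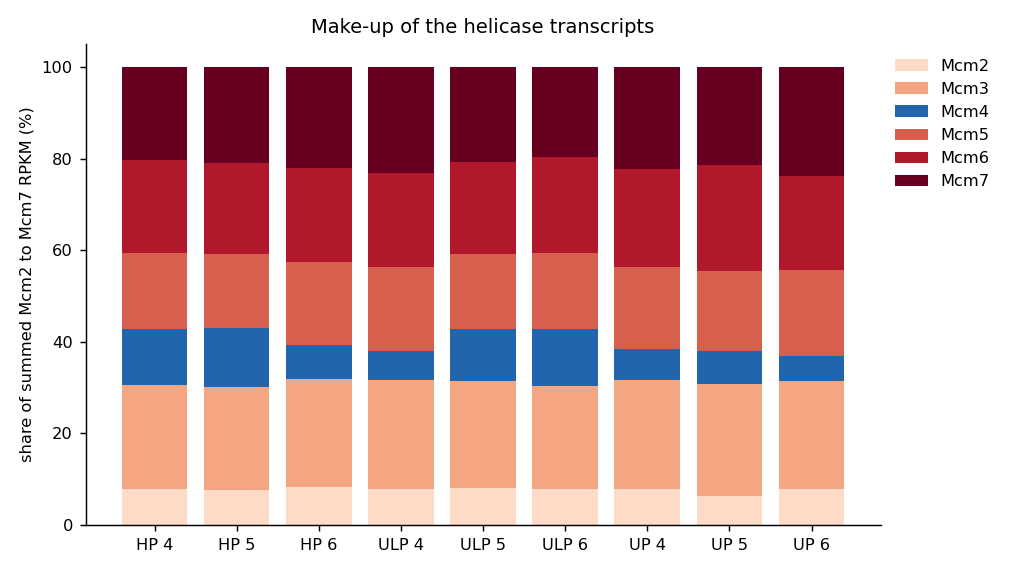
Stacked bars of the share of each subunit in the summed RPKM of Mcm2 to Mcm7 (y axis, %), with 1 bar for each of the 9 libraries (x axis). The Mcm4 band was 11.4 to 12.8% in HP 4, HP 5, ULP 5 and ULP 6, and 5.51 to 7.47% in HP 6, ULP 4 and the UP libraries.

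Of the loading factors, Cdt1 resembled the larger set of subunits, and Cdc6 had no steady direction in HP over UP. Cdt1, which brings the Mcm ring to the origin and is held back by geminin, had 42.7, 33.2 and 55.4 RPKM in HP, 48.6, 41.4 and 40.4 RPKM in ULP, and 51.03, 46.4 and 53.7 RPKM in UP libraries. HP 5 was the lowest library and HP 6 the highest, so that the HP group spanned the whole range. Its log2 fold change was −0.32 ± 0.19 in HP over UP (adjusted p = 0.211, edgeR) and −0.29 ± 0.19 in ULP over UP (adjusted p = 0.301). It passed in HP over UP without HP 6 (−0.52, adjusted p = 0.0378) and without both libraries (−0.52, adjusted p = 0.0155), and in neither case in ULP over UP. In those fits of HP over UP, 38.3% and 48.5% of all genes tested were called. Cdc6, the ATPase that recruits Cdt1 and the ring to the origin recognition complex, had 6.36, 6.69 and 8.54 RPKM in HP, 7.34, 5.43 and 5.96 RPKM in ULP, and 6.66, 5.52 and 7.53 RPKM in UP libraries. The groups overlapped, the log2 fold change was 0.01 (95% interval −0.41 to 0.43) in HP over UP and −0.15 in ULP over UP, and the adjusted p were 0.967 and 0.587. The sign of Cdc6 in HP over UP was negative in 8 and positive in 13 of 21 alternatives. In ULP over UP it was negative in 21 of 21, at −0.40 to −0.05, and was called in 0 of them. Without HP 6 and ULP 4, Cdc6 was at −0.12 in HP over UP and −0.29 in ULP over UP (adjusted p = 0.534 and 0.154, edgeR).

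Cdc45, the helicase activator, was the steadiest of the 10. It had 19.5, 18.0 and 20.1 RPKM in HP, 19.2, 17.9 and 17.5 RPKM in ULP, and 19.4, 19.2 and 19.7 RPKM in UP libraries. The HP and UP libraries overlapped in RPKM, and after TMM scaling each HP library lay below each UP library, at a log2 fold change of −0.14 ± 0.12 (adjusted p = 0.374, edgeR). For ULP over UP the value was −0.17 ± 0.12 (adjusted p = 0.312). Pcna had 117.4, 116 and 102.5 RPKM in HP, 93.0, 109.5 and 108.6 RPKM in ULP, and 95.6, 97.8 and 79.4 RPKM in UP libraries. Each HP library was above each UP library in RPKM, but not after TMM scaling, and ULP 4 was among the UP libraries. Its log2 fold change was 0.18 ± 0.12 in HP over UP (adjusted p = 0.283) and 0.10 ± 0.12 in ULP over UP (adjusted p = 0.582), and the GC offsets turned the sign in both comparisons, to −0.19 and −0.11 in HP over UP and −0.21 and −0.13 in ULP over UP. Without HP 6 and ULP 4, Cdc45 was at −0.16 and −0.22 and Pcna at 0.25 and 0.17 in HP over UP and ULP over UP, with adjusted p from 0.126 to 0.298, and neither passed.

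Counted together, 0 of the 10 genes were called in HP over UP, where edgeR called 0.524% of all genes tested at an adjusted p under 0.05. At an unadjusted p under 0.05, 1 member (Mcm4) was higher in HP and 0 were lower, beside 24.3% and 16.6% of all genes, and DESeq2 called 1 member beside 24.8% of all genes. The groups did not overlap in TMM-scaled CPM for 1 member higher in HP (Mcm4, all genes 21.9%) and 1 member lower (Cdc45, all genes 20.9%). In deposited RPKM they did not overlap for 2 members, both higher in HP (Mcm4 and Pcna, all genes 30.1%). The median log2 fold change of the members was −0.20, with 3 positive and 7 negative, beside a median of 0.01 over all genes tested. In ULP over UP, 0 members were called beside 0.00% of all genes, 0 had an unadjusted p under 0.05 beside 27.1% of all genes, and DESeq2 called 0 members beside 7.13%. The median of the members was −0.22 beside −0.01 over all genes, with 2 positive and 8 negative, and no member was free of overlap, beside 14.8% of all genes higher and 13.5% lower in ULP. Both comparisons share the UP libraries, so that their likeness is not independent.

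**Figure D3:**
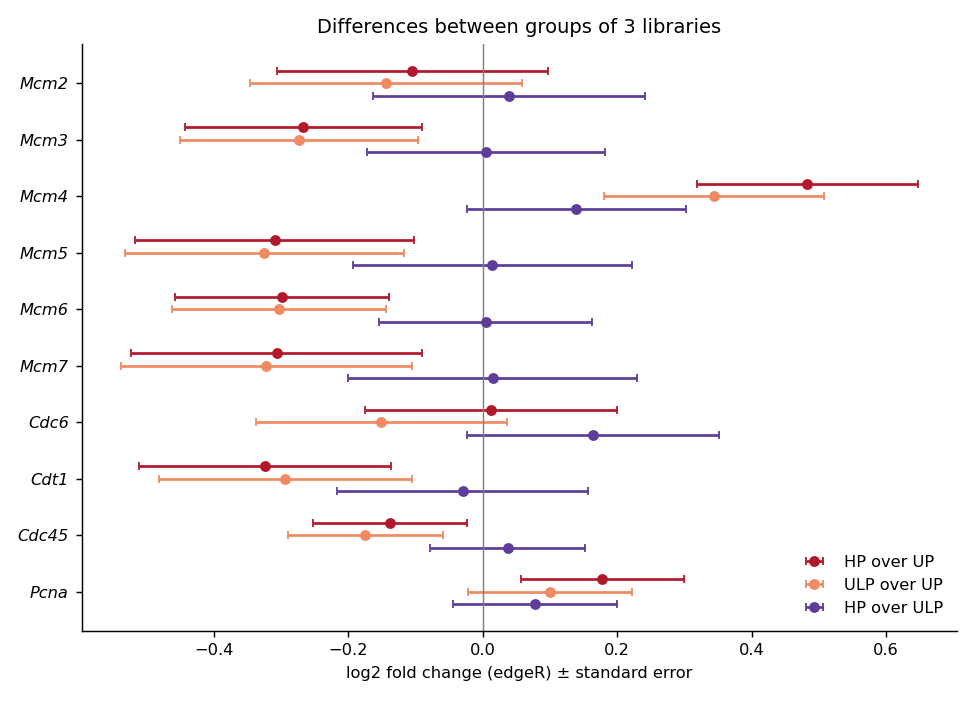
The log2 fold change of each gene (x axis, points, edgeR) with its standard error (bars) for HP over UP, ULP over UP and HP over ULP. Mcm4, at 0.48 and 0.34, and Pcna, at 0.18 and 0.10, lay above 0 against UP with opposite signs under the GC offsets (−0.19 and −0.24 for Mcm4, −0.19 and −0.21 for Pcna with the replicate block), and the HP over ULP values lay between −0.03 and 0.16.

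No member differed between the priming doses by the test. In HP over ULP, 0 of 10 members were called, beside 0.170% of all genes tested by edgeR, 0 had an unadjusted p under 0.05 beside 3.94%, and DESeq2 called 0 members beside 0.757%. The log2 fold changes lay between −0.03 (Cdt1) and 0.16 (Cdc6), their median was 0.03 beside 0.02 over all genes, and the adjusted p was 0.9996 for each. The 95% intervals still allowed differences of −0.23 to 0.51 for Mcm4, −0.35 to 0.36 for Mcm6, −0.47 to 0.50 for Mcm7 and −0.26 to 0.58 for Cdc6. Each member overlapped between HP and ULP, beside 4.48% of all genes without overlap higher and 5.16% lower in HP. Without HP 6 and ULP 4, 0 members were called, the values lay between −0.13 (Cdt1) and 0.17 (Cdc6), and their median was 0.03.

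Along the first component of the libraries the members parted into genes that were low and genes that were high in HP 4, HP 5, ULP 5 and ULP 6. Relative to their own mean over 9 libraries, Mcm2, Mcm3, Mcm5, Mcm6 and Mcm7 were between −0.15 and −0.29 in HP 4 and HP 5 on the log2 CPM scale, while Mcm4 was at 0.29 and 0.37 and Pcna at 0.16 and 0.13. In HP 6 the 5 subunits were between 0.16 and 0.28, Mcm4 was at −0.04 and Pcna at −0.04. The root mean square distance to the mean profile of the 10 genes was 0.38 for Mcm4 and 0.25 for Pcna, and 0.08 to 0.15 for the other 8. Transcripts of Mcm4 had 43.1% GC and those of Pcna 45.3%, the lowest of the 10, beside 47.6% for Mcm6 and up to 57.8% for Cdt1, and beside a median of 49.4% over the genes tested. Among the other 8 the values did not run with GC. In HP over UP, Mcm6 was at −0.30 and Cdt1 at −0.32, whereas Mcm2, with 55.1% GC, was at −0.10. Whether base composition underlies the split was not tested. An offset for GC content took the median of the members relative to all genes to −0.09 (with the block) and −0.06 (with gene length) in HP over UP, against −0.21 without it, and to −0.13 and −0.16 in ULP over UP, against −0.22.

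**Figure D4:**
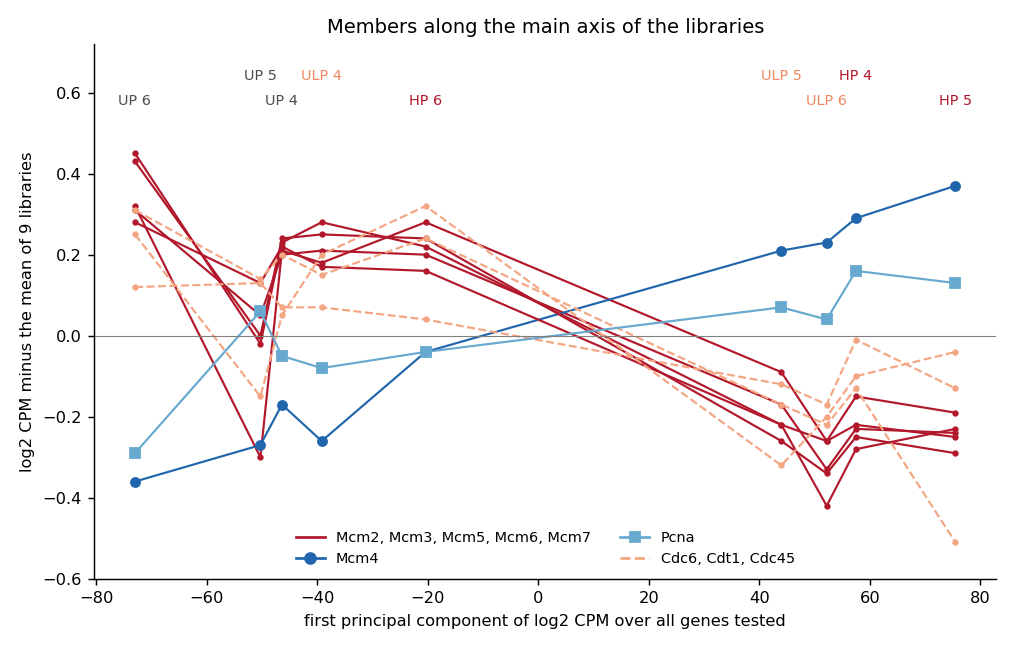
Each gene's log2 CPM minus its mean over 9 libraries (y axis) against the position of the library on the first principal component of all genes tested (x axis), with lines joining the libraries. Mcm4 was at 0.21 to 0.37 and Mcm3, Mcm5, Mcm6 and Mcm7 were below 0 in HP 4, HP 5, ULP 5 and ULP 6, at the right.

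The other genes of the pathway were taken from lists of 137 genes of replication and the cell cycle, of which 133 were tested and 0 were called in any comparison by edgeR. DESeq2 called 38 higher and 1 lower in HP over UP, beside 2505 higher and 1145 lower of all 14702 genes (24.8% in either direction). In ULP over UP it called 15 higher and 0 lower, beside 1035 higher and 13 lower of all genes (7.13% in either direction). By edgeR in HP over UP, 46 of the 133 had an unadjusted p under 0.05 and were higher and 6 were lower, beside 24.3% and 16.6% of all genes. The smallest adjusted p was 0.0606. The counts were 36 and 8 in ULP over UP (all genes 17.3% and 9.79%), with a smallest adjusted p of 0.169. The median log2 fold change of the 133 was 0.09 in HP over UP and 0.02 in ULP over UP, and −0.11 and −0.15 with the offset for gene length, which moved the median of all genes to −0.19 and −0.17. Without HP 6 and ULP 4, 47 were called higher and 19 lower in HP over UP, and 38 and 19 in ULP over UP. Of the 14931 genes tested in that fit, 4191 were called higher and 3052 lower in HP over UP. For ULP over UP the counts over all genes were 3517 and 2185.

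The origin recognition complex, which marks origins before loading, had positive values for 6 of 6 subunits in HP over UP and in ULP over UP, with medians of 0.48 and 0.39, but under the GC offsets the medians were −0.13 and −0.20 in HP over UP and −0.13 and −0.21 in ULP over UP. Orc4 averaged 5.29 ± 2.69 RPKM in HP, 4.21 ± 1.75 RPKM in ULP and 1.54 ± 0.413 RPKM in UP libraries (log2 fold change of HP over UP 1.66 ± 0.45, adjusted p = 0.0606, edgeR). Orc2 averaged 37.1 ± 3.47, 34.9 ± 5.26 and 23.4 ± 2.76 RPKM in HP, ULP and UP libraries, and the value for Orc5 was 0.44 in HP over UP. The median without HP 6 and ULP 4 was 0.61 in HP over UP, with 5 of 6 called higher, and 0.51 in ULP over UP, with 3 called higher. In that fit 4191 of 14931 genes tested were called higher in HP over UP and 3517 in ULP over UP. Genes that control loading, such as geminin and the ubiquitin ligases that degrade Cdt1, had 4 of 8 members with an unadjusted p under 0.05 and higher in HP and 0 lower, beside 24.3% and 16.6% of all genes, at a median of 0.35 (−0.06 with the offset for GC and length, 0.07 with the block and GC, and 0.45 without HP 6 and ULP 4). Dtl, the adaptor of the ligase that degrades Cdt1 bound to Pcna, averaged 2.04 ± 0.562 RPKM in HP, 1.51 ± 0.468 RPKM in ULP and 0.719 ± 0.145 RPKM in UP libraries, at 1.38 ± 0.28 in HP over UP (adjusted p = 0.0606). Skp2, another ligase subunit, was at 0.54 and Cul4b, a scaffold of such a ligase, at 1.23 in the same comparison.

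Of the relatives of the ring, Mcm8, a helicase of DNA repair, was at 1.38 ± 0.40 in HP over UP (adjusted p = 0.0608), Mcm9, its partner, at −0.01 (0.962) and Mcm10, which assists the start of replication, at −0.23 (0.232). Mcmdc2 had at most 16 counts and was not tested. The GINS complex, which joins Cdc45 on the ring, was split, with Gins1 at 0.28, Gins3 at 0.38, Gins2 at −0.15 and Gins4 at −0.39 in HP over UP, and 0.00, 0.17, −0.17 and −0.38 in ULP over UP. Genes of origin firing were positive for 8 of 8 in both comparisons, at medians of 0.40 and 0.31, with 5 of 8 positive in HP over UP under both GC offsets and 3 of 8 in ULP over UP under the offset for GC and length, and at medians of 0.47 and 0.37 without HP 6 and ULP 4. Cdc7, the kinase that phosphorylates the Mcm ring, averaged 8.06 ± 2.96 RPKM in HP, 6.73 ± 1.93 RPKM in ULP and 3.93 ± 0.54 RPKM in UP libraries, and Dbf4, its activator, 8.997 ± 2.06, 7.52 ± 1.35 and 5.13 ± 0.594 RPKM in the 3 groups. Topbp1, a scaffold for helicase assembly, was at 0.80 in HP over UP. Fork protection was represented by Clspn at 0.64, Tipin at 0.42 and Timeless at −0.02.

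Lists of DNA synthesis itself had medians between −0.22 and 0.03 in HP over UP. The 12 subunits of polymerases alpha, delta and epsilon had a median of −0.07, with 4 positive and 8 negative, from Pola1 at 1.03 and Prim1 at 0.42 to Pold2 at −0.40. The 10 clamp loader genes had a median of −0.13, with 4 positive and 6 negative, among them Atad5 at 2.66, Rad17 at 1.34 and Rfc2 at −0.58. Atad5, which unloads Pcna, averaged 2.33 ± 1.46 RPKM in HP, 1.83 ± 1.22 RPKM in ULP and 0.34 ± 0.111 RPKM in UP libraries. The 9 genes of the lagging strand and of single-strand binding had a median of −0.22, with Rpa2 at −0.55, Rnaseh2a at −0.39 and Dna2 at 0.45. The 8 genes of nucleotide supply had a median of 0.03, with Dck at 0.63 and Dctpp1 at −0.49. Among these 4 lists the counts at an unadjusted p under 0.05 were 2, 3, 1 and 2 higher and 0, 1, 1 and 1 lower in HP, in the order given, beside 24.3% and 16.6% of all genes. Their medians were −0.10, −0.18, −0.35 and −0.03 without HP 6 and ULP 4.

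**Figure D5:**
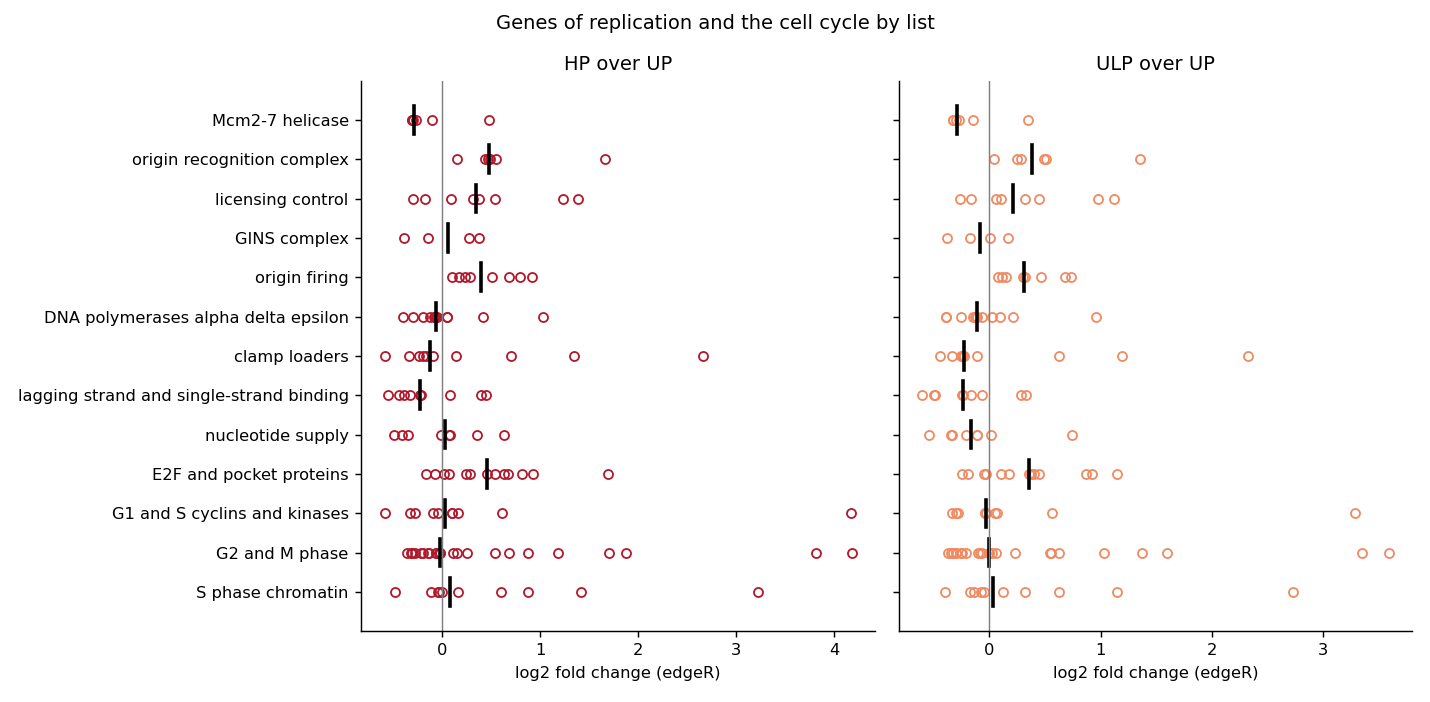
The log2 fold change (x axis, edgeR) of each gene tested (circles) in lists of replication and cell cycle genes (rows), for HP over UP and ULP over UP, with the median of each list as a bar. The Mcm2-7 helicase had medians of −0.28 and −0.29 and the origin recognition complex 0.48 and 0.39, the second of which turned to −0.13 in both comparisons under the replicate block with a GC offset.

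Of the regulators, 8 of 13 E2F and pocket protein genes had an unadjusted p under 0.05 and were higher in HP over UP and 0 were lower, beside 24.3% and 16.6% of all genes, with a median of 0.46 (0.10 and 0.19 under the GC offsets, and 0.53 without HP 6 and ULP 4). E2f5 was at 1.69, E2f3 at 0.46 and Rbl2, a pocket protein that represses E2F targets in resting cells, at 0.64, each with an adjusted p from 0.0606 to 0.0608. Among 10 cyclins and kinases of G1 and S, Ccne2, which encodes cyclin E2, averaged 5.03 ± 3.62 RPKM in HP, 2.70 ± 2.03 RPKM in ULP and 0.256 ± 0.168 RPKM in UP libraries (log2 fold change of HP over UP 4.17 ± 1.02, adjusted p = 0.0606), while the list had a median of 0.03 with Cdk6 at 0.61 and Myc at −0.58. Of the 5 Cdk inhibitors tested, Cdkn1b was at 1.12, Cdkn1a at −0.21 and Cdkn1c at −0.45, and the list median was 0.06. The 24 genes of G2 and M phase had a median of −0.02 in HP over UP and 0.00 in ULP over UP. At an unadjusted p under 0.05, 8 of them were higher and 0 lower in HP over UP, beside 24.3% and 16.6% of all genes. In ULP over UP 7 of the 24 were higher and 0 lower, beside 17.3% and 9.79% of all genes. Cenpf (4.18), Kif11 (1.18) and Nusap1 (0.68), a centromere protein, a spindle motor and a spindle protein, had the smallest p of this list in HP over UP. The 10 genes of S phase chromatin and checkpoints had a median of 0.08 in HP over UP, with 5 positive and 5 negative, the lowest at −0.48. Chek1 at 1.42, Brca1 at 0.87 and Exo1 at 0.60 had the smallest p of this list. At an unadjusted p under 0.05, 4 of the 10 were higher and 1 was lower, beside 24.3% and 16.6% of all genes.

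The genes whose profile over the 9 libraries was nearest to the mean of the 10 members, among 9242 genes with a mean of at least 5 CPM, were Agfg2, Uck2, Glul, Ttc27 and Nsun5. Their root mean square difference from it was 0.025 to 0.035 on the log2 scale. Their log2 fold changes in HP over UP were −0.07 to −0.16, with adjusted p from 0.367 to 0.716 by edgeR.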

How the data were processed

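Poly(A) RNA of BV-2 cells was sequenced in 9 libraries. Per the labels and the supplement, the authors converted base calls with bcl2fastq 1.8.4, aligned reads with TopHat2 2.1.0 and counted them per gene with featureCounts 1.5.0. The submitters' processing notes name GRCm38, whereas the supplement names another build. No source used here gives the strand setting of featureCounts or the time from the last LPS dose to harvest, and genes that overlap are thus uncertain. The deposited counts are raw and whole. The deposited RPM values were scaled by the authors to the library total, and the deposited RPKM values also to gene length.

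From the counts, filterByExpr kept 14702 of 48526 genes, and edgeR 4.0.16 (R 4.3.3, TMM factors) ran its quasi-likelihood test with group as the single term and the 9 libraries in 1 fit. A call needed an adjusted p (Benjamini-Hochberg, over all genes tested) under 0.05. The step was tested on simulated counts drawn independently for each gene, without the shared first component of these libraries. It recovered 48% to 54% of genes with a true log2 fold change of 1, and 94% to 97% of those with 2. Smaller changes, such as those of the members, were not simulated. Levels are the deposited RPKM, and principal components used log2 CPM with a prior count of 2. No libraries were duplicates by a chi-square test of counts within groups.

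The members and lists were chosen with earlier results of these data known. Named are the 10 members, up to 3 genes of each other list with the smallest p in HP over UP (lists of at most 4 genes in full), and the 5 genes nearest to the members' mean profile. Of these, 1 gene is not reported here. Alternatives were DESeq2 1.42.0, RLE size factors, no filter, the 6 libraries compared, limma 3.58.1 on log2(RPKM + 0.1) and log2(RPKM + 1), a replicate block, offsets for gene length and GC (loess, span 0.3, with GC for 99.1% of genes tested), and leaving out each library. Leaving out HP 6 and ULP 4 together and the offset for GC and gene length without the block were added after seeing the data. RefSeq tables gave the gene positions and promoters.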

Additional observations from a re-analysis of the deposited data

How the results depend on the processing

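Of the 10 genes, 0 were called in each of the 3 comparisons by edgeR. In HP over UP, 1 was called with DESeq2 (Mcm4), beside 24.8% of all genes. Leaving out 1 library gave 0 to 2 there, with 2 (Mcm4, Cdt1) without HP 6, beside 38.3% of all genes, and 1 (Mcm4) without ULP 4, beside 25.9%. For ULP over UP leaving out 1 library gave 0 to 1 (Mcm4 without ULP 4, beside 19.2% of all genes), and in HP over ULP 0. Without HP 6 and ULP 4 together, chosen after seeing the data, 6 were called in HP over UP, beside 48.5% of all genes. For ULP over UP 5 were called in that fit, beside 38.2%. The cause was not tested. The median log2 fold change of the members in HP over UP was −0.411 with the offset for gene length and −0.425 with the replicate block and this offset, where the median of all genes was −0.19, against −0.203 and 0.01 without offsets. The count of members without overlap in ULP over UP was 1 of 10 with RLE size factors, against 0 with TMM scaling. By TMM scaling, 14.8% of all genes were without overlap and higher in ULP, and 13.5% were lower. Leaving out 1 library moved the median between −0.12 and −0.34 in HP over UP, between −0.15 and −0.37 in ULP over UP and between −0.14 and 0.16 in HP over ULP.

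Same-numbered deviations from the group means correlated at 0.09 to 0.51 for HP and UP. For ULP and UP the range was −0.52 to 0.11, and for HP and ULP −0.84 to 0.68. Since HP 6 and ULP 4 lay apart from their groups on the first component, these values cannot decide whether replicate numbers pair the libraries. With the number as a replicate block, 0 members were called in each comparison, and all genes called were 0 in HP over UP, against 77, and 0 in HP over ULP, against 25. All genes called in HP over UP were also 3650 (DESeq2), 2018 (no filter), 1511 (6 libraries), 46 and 38 (limma with 0.1 and 1), 216 (GC and length), 32 and 27 (block with length and with GC), 7243 (without both libraries) and 0 to 5721 when 1 library was left out, the highest without HP 6 and 3868 without ULP 4. In ULP over UP, where 0 were called, they were 1048 (DESeq2), 2864 (without ULP 4) and 5702 (without both). In HP over ULP they were 107 (DESeq2), 53 (no filter), 0 (6 libraries), 10 (limma with 1), 40 (length), 16 (block with GC), 0 (block with length), 87 (GC and length), 8 (without both) and 0 to 30 with 1 library left out. The share of higher calls in HP over UP moved with the setting, at 13 higher and 64 lower in the fit reported, 2505 and 1145 with DESeq2, 1612 and 406 with no filter and 1218 and 293 with 6 libraries. The depth left 741 counts or more for each member in each library.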

Other observations

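The 10 microglial and macrophage markers tested had a smallest adjusted p of 0.0606 in HP over UP and 0.169 in ULP over UP (edgeR). The summed level of the 12 markers listed was 1760 to 2114 RPKM in HP, 1856 to 2297 RPKM in ULP and 2293 to 2545 RPKM in UP libraries, so that HP lay below UP and ULP overlapped UP. At an unadjusted p under 0.05, 4 of 10 were lower and 1 was higher in HP over UP, beside 16.6% and 24.3% of all genes. The higher one, Ptprc, the leukocyte antigen CD45, was named after its value was seen and averaged 11.7 ± 4.63 RPKM in HP, 12.0 ± 5.14 RPKM in ULP and 5.32 ± 1.77 RPKM in UP libraries, at 1.02 ± 0.41 in HP over UP (adjusted p = 0.098, edgeR). Spi1, the myeloid transcription factor PU.1, averaged 132.8 ± 28.6 RPKM in HP, 156.2 ± 20.9 RPKM in ULP and 204.2 ± 15.8 RPKM in UP libraries (SD, n = 3 each), with a log2 fold change of −0.74 ± 0.18 in HP over UP (adjusted p = 0.0606, edgeR). Fcer1g, an adaptor of Fc receptors, averaged 339.2 ± 19.7, 395.7 ± 47.0 and 530.0 ± 81.6 RPKM in HP, ULP and UP libraries, at −0.77 ± 0.16 in HP over UP (adjusted p = 0.0606). Mitochondrially encoded mRNAs took 4.23%, 4.48% and 3.10% of counts in HP 4, 5 and 6, 4.17%, 4.00% and 3.90% in ULP, and 3.47%, 2.70% and 3.55% in UP libraries.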
